A study of Mus musculus with 29 samples.

Results

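The genes described are those of the lysosomal cathepsins, of the lysosome-associated membrane proteins and of the vacuolar proton pump, measured in whole mouse liver after ligation of the bile duct. They were collected by symbol: Cts followed by 1 letter, Lamp followed by a number, and Atp6v0, Atp6v1 or Atp6ap with any suffix. These families were chosen with earlier results of these data known. Of 22180 genes with a row of their own on the array, 47 carried such a symbol. These were 18 cathepsins, 4 Lamp genes, 8 genes of the membrane sector V0 of the pump, 14 of its peripheral sector V1 and 3 accessory genes. A log2 value above 5 in at least 3 arrays was reached by 36 of the 47, and these 36 were tested together with all other genes past that filter, 14699 in all.

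Every mouse was a wild-type male C57BL/6N of 8 to 10 weeks, as each title carries wt and the labels name no altered gene. In bile duct ligation (BDL) the common bile duct outside the liver is tied off, which holds bile back in the liver, and the sham group had an operation without it. Liver RNA came from 3, 2 and 4 sham mice at days 1, 3 and 7 and from 5 ligated mice at each of days 1, 3, 7 and 21, so that 29 arrays fall into 7 groups. Sham livers of day 21 were not analysed here. Day 21 was therefore set against the sham arrays of day 7, a comparison in which time since surgery and ligation cannot be told apart and which shares its controls with that of day 7.

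Lysosomes break down what a cell takes up or discards. Cathepsins are proteases that work in their acid interior, and the pump supplies the acid: its V1 sector splits ATP outside the membrane and drives protons through the ring of the V0 sector. The Lamp proteins line the inside of the lysosomal membrane. In the liver all cell types carry lysosomes, and macrophages such as Kupffer cells, the resident macrophages of the sinusoids, are especially rich in them. Values are log2 signal, so a step of 1 is a doubling, and differences are BDL minus sham with their standard error. Levels are compared between arrays for 1 gene, not between genes.

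A 6-letter E-box within the start region of many lysosomal genes is the known binding site of TFEB and related factors, which is why 5 start regions of the members are shown. Each covers 250 bases before to 50 bases after a gene's start (RefSeq, mouse build GRCm38.p6, 5′ to 3′ on the gene's strand). Capitals mark CACGTG, the E-box, and its longer form TCACGTG, which overlaps it; in Ctss they mark GAGGAAG, the core bound by the myeloid factor PU.1, which lies on the opposite strand and so reads CTTCCTC. Motifs were read on both strands. Ctsd (chr7:142387778-142388077, minus strand) and Atp6v1a (chr16:44139210-44139509, minus strand) are members that were higher at day 7 and hold the E-box, as is Atp6v0e (chr17:26676146-26676445, plus strand). Ctss (chr3:95526536-95526835, plus strand) rose the most of the cathepsins and has no E-box there. Lamp1 (chr8:13158911-13159210, plus strand) has the most E-boxes, 4, and passed the test in none of the 4 comparisons with sham.
Ctsd: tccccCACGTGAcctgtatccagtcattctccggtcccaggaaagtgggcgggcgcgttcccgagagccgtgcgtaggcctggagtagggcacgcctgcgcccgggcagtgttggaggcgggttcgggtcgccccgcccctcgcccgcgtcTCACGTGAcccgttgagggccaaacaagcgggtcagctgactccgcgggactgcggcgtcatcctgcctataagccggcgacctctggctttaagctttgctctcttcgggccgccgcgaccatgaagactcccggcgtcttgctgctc
Atp6v1a: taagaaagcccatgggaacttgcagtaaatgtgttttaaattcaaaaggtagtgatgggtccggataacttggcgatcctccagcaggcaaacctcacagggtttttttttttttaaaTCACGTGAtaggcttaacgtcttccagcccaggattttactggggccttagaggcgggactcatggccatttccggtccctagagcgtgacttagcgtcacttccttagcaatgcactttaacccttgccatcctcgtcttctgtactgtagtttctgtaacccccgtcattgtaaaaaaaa
Atp6v0e: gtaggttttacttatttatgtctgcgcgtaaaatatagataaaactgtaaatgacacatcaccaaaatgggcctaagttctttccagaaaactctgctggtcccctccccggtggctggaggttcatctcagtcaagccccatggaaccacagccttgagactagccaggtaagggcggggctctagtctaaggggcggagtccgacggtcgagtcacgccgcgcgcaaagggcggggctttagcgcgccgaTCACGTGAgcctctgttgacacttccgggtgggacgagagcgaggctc
Ctss: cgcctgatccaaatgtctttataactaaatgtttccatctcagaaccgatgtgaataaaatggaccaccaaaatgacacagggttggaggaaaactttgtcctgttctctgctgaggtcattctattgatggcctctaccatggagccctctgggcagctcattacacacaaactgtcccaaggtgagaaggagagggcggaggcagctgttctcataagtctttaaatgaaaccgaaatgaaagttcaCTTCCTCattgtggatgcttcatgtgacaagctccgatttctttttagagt
Lamp1: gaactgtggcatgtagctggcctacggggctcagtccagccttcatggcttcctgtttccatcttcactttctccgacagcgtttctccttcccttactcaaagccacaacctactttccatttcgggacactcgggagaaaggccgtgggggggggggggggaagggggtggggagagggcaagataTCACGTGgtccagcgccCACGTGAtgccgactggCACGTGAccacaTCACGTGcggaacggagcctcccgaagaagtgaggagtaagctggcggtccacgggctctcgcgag

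Counted from the gene start, the E-box begins at -245 and -98 in Ctsd, at -131 in Atp6v1a and at 4 in Atp6v0e. In Lamp1 the 4 copies begin at -61, -45, -28 and -15, and in Ctss the marked letters begin at -1. The table of start regions held 36 of the 47 genes, with 39 regions. An E-box occurred in 9 of these 39 regions (23.1%) and in 7.15% of all 32851 regions of the same length. For TCACGTG the shares were 17.9% and 3.77%, and for GAGGAAG 15.4% and 13.6%. The 6 genes with GAGGAAG were Ctsc, Ctsg, Ctsk, Ctsr, Ctss and Atp6v1d. Of the 4 tested, Ctss was higher at day 7 and Ctss and Ctsk at day 21, while Ctsc and Atp6v1d were not called at either day. The letters TGACTCA, bound by AP-1, were in no member region and in 5.20% of all. The 9 genes with an E-box were Ctsa, Ctsd, Ctsf, Ctsl, Lamp1, Atp6v0b, Atp6v0d1, Atp6v0e and Atp6v1a. Of these 9, 5 were higher at day 7, against 4 of the 17 tested members whose regions lacked it and 4 of the 10 with no entry, beside 14.2% of all tested genes. At day 21 the counts were 4 of 9, 5 of 17 and 4 of 10, beside 17.3%. These differences were not tested. A match is a description of letters and not of binding. Ctsb, Atp6v0d2 and Atp6v1b2, which also rose, have no entry in the table.

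The arrays had medians between 4.90 and 5.13. Arrays of day 1 were uneven: sham replicates 1 and 3 and BDL replicates 2 and 3, 4 arrays in all, had an SD of 1.55 to 1.58 over the tested genes, against 1.64 to 1.70 in the other 25. Replicate numbers are names given in accession order. With a model term for these 4 arrays, called the array set here, 17 of the 36 tested members were lower in the set and 1, Atp6v1g3, was higher, while over all tested genes 2659 were lower and 1074 higher. The set holds 2 of the 3 sham arrays and 2 of the 5 BDL arrays of day 1, so day 1 values are also given without it. Each title has its own animal number, so the spread behind each p-value is that among mice. The number of arrays limits the precision, which is lowest at day 3 with 2 sham arrays.

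At day 7 of ligation 13 of the 36 tested members were higher, none was lower and 23 were not called, where 14.2% of all tested genes were higher and 4.97% lower. Against the same sham arrays 13 were higher and none was lower at day 21, where the shares over all genes were 17.3% and 7.90%. At day 3, 4 were higher and 1 lower, beside 6.47% and 3.69% of all genes. At day 1, 6 were higher and 2 lower, beside 8.52% and 4.80%. Of the 2 lower, Atp6v1g3 passed the filter only with the sham arrays of day 1 that it was tested against. The median difference of the members was 0.12 at day 1, 0.17 at day 3, 0.26 at day 7 and 0.27 at day 21, and that of all tested genes lay between 0.02 and 0.03. Of 13 tested cathepsins 7 were higher at day 7 and 6 at day 21, of 21 tested pump genes 6 and 7, and of 2 tested Lamp genes none. An unadjusted p under 0.05 was reached by 12, 11, 16 and 19 members at days 1, 3, 7 and 21, and by 25.9%, 22.5%, 30.5% and 34.9% of all tested genes.

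**Figure D1:**
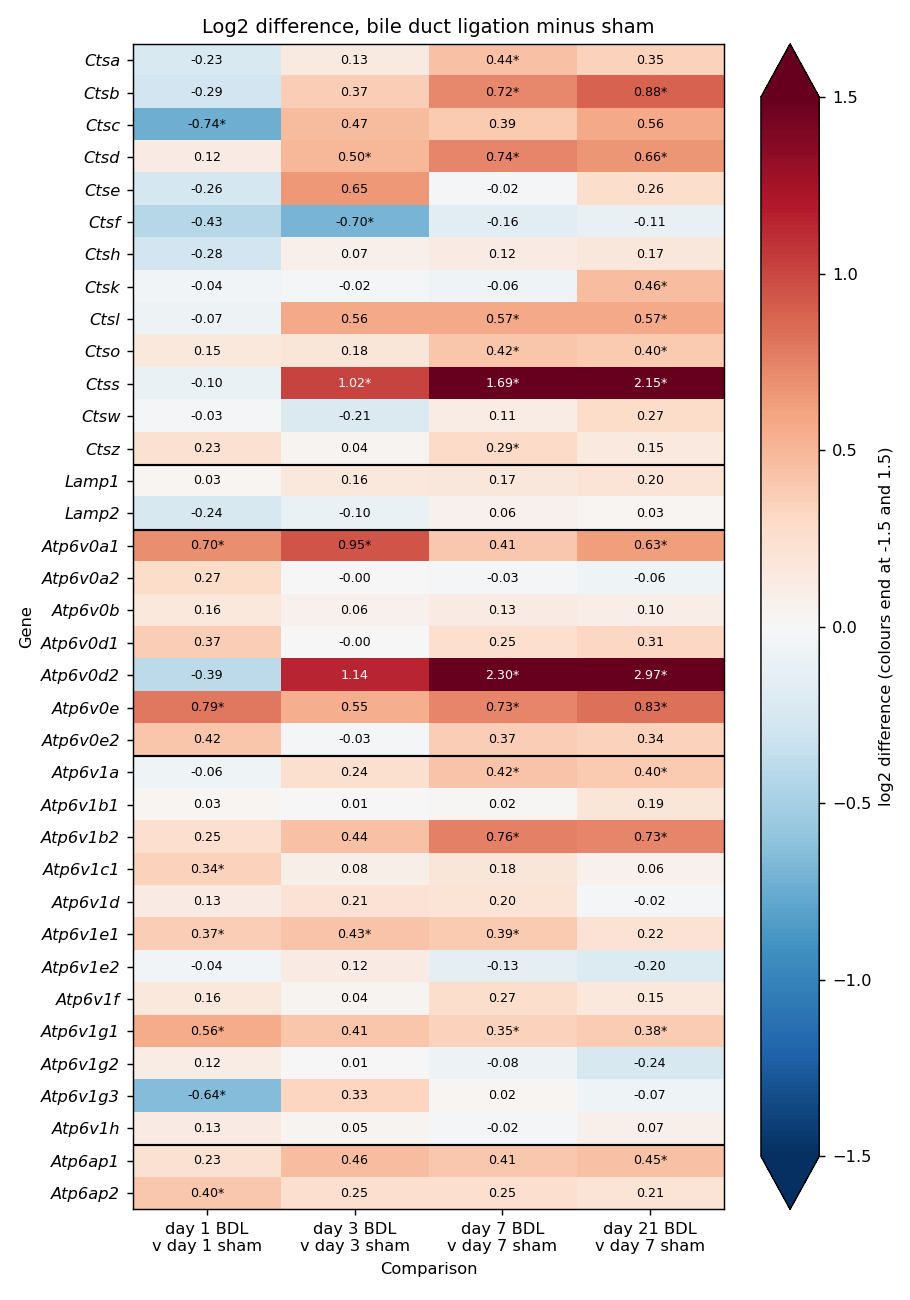
Log2 difference of the 36 tested members (rows, by role) in the 4 comparisons of BDL with sham (columns); colour and number give the difference and an asterisk an adjusted p under 0.05 in limma. The days 7 and 21 columns share their sham arrays, and Ctss and Atp6v0d2 reach the largest values in both, 1.69 and 2.30 at day 7 and 2.15 and 2.97 at day 21.

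The counts depend on how the arrays are brought to a common scale and on single arrays. Median centring of the arrays, which moved the median of all genes to -0.10 at day 7 and -0.11 at day 21, left 6 members higher at day 7 and 7 higher and 1 lower at day 21, beside 10.4% and 12.2% of all genes higher and 13.0% and 17.8% lower. At day 3, with 2 sham arrays, none was called without sham replicate 2, 2 were called without sham replicate 1 and 3 without BDL day 3 replicate 4. Against all 9 sham arrays of the study 14, 20 and 20 members were higher at days 3, 7 and 21 and none was lower, where 15.0%, 21.2% and 23.5% of all tested genes were higher in the same fit. Leaving out sham day 7 replicate 2 left 7 called at day 7, leaving out sham day 7 replicate 4 left 8, and leaving out BDL day 21 replicate 4 left 8 at day 21. For fits that leave out 1 array, here and below, the share over all genes was not read. Called under every alternative at both days 7 and 21 were Ctsb, Ctsd, Ctss, Atp6v0d2, Atp6v1b2 and Atp6v0e, and at day 21 also Ctsl. Of the tested members, 10 were higher in every BDL array than in every sham array at day 7 and 15 at day 21, where 14.2% and 17.0% of all tested genes were so. At day 3, 15 members were higher without overlap and 1 was lower, beside 15.1% and 11.3% of all genes. At day 1 the 3 members higher without overlap were Atp6ap2, Atp6v1g1 and Ctsz, beside 7.70% of all genes.

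Cathepsin S rose the most among the proteases. Ctss encodes a cysteine protease of macrophages and other antigen-presenting cells that trims the invariant chain of class II molecules and can cut elastin. It read 8.20, 9.12 and 8.11 in the sham arrays of day 1, 8.83 and 8.77 at day 3 and 8.94, 8.83, 8.86 and 8.18 at day 7. In ligated livers the values were 8.68, 8.17, 8.12, 7.97 and 8.97 at day 1, 9.44, 9.39, 9.89, 10.29 and 10.10 at day 3, 10.25, 10.37, 10.14, 10.42 and 10.80 at day 7 and 10.75, 10.80, 10.83, 11.14 and 10.73 at day 21. The ligated arrays overlapped with sham at day 1 and all lay above every sham array of the study from day 3 on. The difference was 1.02 ± 0.27 at day 3 (adjusted p = 0.0143), 1.69 ± 0.22 at day 7 (adjusted p = 1.82e-06) and 2.15 ± 0.22 at day 21 (adjusted p = 2.17e-08). On the linear scale these are 2.03, 3.23 and 4.43-fold. At day 1 the difference was -0.10 ± 0.24 (adjusted p = 0.856). The day 3 call rested on both sham arrays: it ended without replicate 1 (1.05, adjusted p = 0.0885) or replicate 2 (0.99, adjusted p = 0.122).

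Cathepsin D, the main aspartic protease of lysosomes, rose with a small spread. Ctsd stood at 11.06, 10.99 and 11.11 in the sham arrays of day 1, 11.13 and 10.86 at day 3 and 11.06, 10.90, 11.02 and 10.90 at day 7. After ligation its arrays gave 11.22, 11.03, 11.23, 11.22 and 11.18 at day 1, 11.36, 11.40, 11.54, 11.63 and 11.53 at day 3, 11.62, 11.73, 11.81, 11.69 and 11.68 at day 7 and 11.54, 11.47, 11.67, 11.79 and 11.71 at day 21. From day 3 every ligated array was above every sham array, and at day 1 BDL replicate 2, with 11.03, lay below 2 of the 3 sham arrays. The rise was 0.50 ± 0.11 at day 3 (adjusted p = 0.00259), 0.74 ± 0.09 at day 7 (adjusted p = 4.52e-07) and 0.66 ± 0.09 at day 21 (adjusted p = 9.56e-07), which is 1.41, 1.67 and 1.58-fold. At day 1 it was 0.12 ± 0.09 (adjusted p = 0.438). Without sham day 3 replicate 2 the day 3 value was 0.36 (adjusted p = 0.139), and with only the groups compared its adjusted p was 0.058.

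Cathepsin B, an abundant cysteine protease, had its widest spread at day 1. Ctsb read 11.26, 12.18 and 11.23 in the sham arrays of day 1, 11.84 and 11.91 at day 3 and 12.01, 11.83, 12.07 and 11.94 at day 7. The ligated arrays read 11.84, 10.86, 10.53, 11.16 and 11.92 at day 1, 12.18, 12.35, 12.23, 12.36 and 12.11 at day 3, 12.76, 12.51, 12.72, 12.64 and 12.79 at day 7 and 12.69, 12.82, 12.84, 13.01 and 12.87 at day 21. The groups overlapped at day 1, and the 4 arrays of the low-spread set read 10.53 to 11.26, while BDL replicate 4, which is not in the set, read 11.16. At days 7 and 21 all ligated arrays lay above all sham arrays. The difference of means was -0.29 ± 0.22 at day 1 (adjusted p = 0.433) and 0.37 ± 0.25 at day 3 (adjusted p = 0.408). It reached 0.72 ± 0.20 at day 7 (adjusted p = 0.0101) and 0.88 ± 0.20 at day 21 (adjusted p = 0.00132), or 1.65 and 1.84-fold. With the array set as a term, Ctsb was lower at day 1, by 0.54 on the log2 scale.

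Cathepsin L, a cysteine protease that also processes other lysosomal enzymes, gave 11.44, 10.87 and 11.37 in the sham arrays of day 1, 11.39 and 10.87 at day 3 and 11.32, 10.93, 11.14 and 10.71 at day 7. In ligation it gave 11.15, 11.29, 11.34, 11.07 and 10.93 at day 1, 11.72, 11.25, 11.73, 11.52 and 12.27 at day 3, 11.47, 11.74, 11.52, 11.61 and 11.63 at day 7 and 11.75, 11.58, 11.62, 11.51 and 11.52 at day 21. The day 3 values reached from 11.25 to 12.27, and 1 of the 5 lay within the range of the sham arrays. The later ligated arrays stood above the sham arrays of day 7. Ctsl differed by 0.56 ± 0.20 at day 3 (adjusted p = 0.0661), by 0.57 ± 0.16 at day 7 (adjusted p = 0.00997) and by 0.57 ± 0.16 at day 21 (adjusted p = 0.0072). Its day 7 call ended under median centring (0.44, adjusted p = 0.0534) and without sham day 7 replicate 4 (0.46, adjusted p = 0.0595). Ctsl at day 1 stood at -0.07 ± 0.17 (adjusted p = 0.842).

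Cathepsin C is the dipeptidyl peptidase that activates the serine proteases of neutrophils, mast cells and cytotoxic lymphocytes. Its arrays read 9.07, 10.36 and 9.72 in the sham arrays of day 1, 9.17 and 9.45 at day 3 and 9.69, 9.50, 9.74 and 8.91 at day 7, and after ligation 9.61, 8.49, 8.54, 8.74 and 9.54 at day 1, 9.53, 9.50, 9.87, 10.11 and 9.90 at day 3, 9.75, 9.70, 9.84, 9.77 and 10.20 at day 7 and 10.11, 9.93, 10.13, 10.16 and 9.79 at day 21. Ctsc was the cathepsin that was lower at day 1, with -0.74 ± 0.25 (adjusted p = 0.0498), although the groups overlapped and the sham arrays alone spanned 9.07 to 10.36. That call ended without sham day 1 replicate 2 (-0.41, adjusted p = 0.294), without sham day 1 replicate 3 (-0.73, adjusted p = 0.126) and without any 1 of BDL replicates 2, 3 and 4 (adjusted p = 0.105 to 0.112). It also ended with no filter (adjusted p = 0.0684), the mean of rows (adjusted p = 0.0503), trend and robust moderation (adjusted p = 0.0513), only the groups compared (adjusted p = 0.263) and the set alone (-0.88, adjusted p = 0.101). Without the whole array set it was -1.07, in a fit that leaves 1 sham array of day 1, replicate 2, the highest at 10.36. From day 3 the ligated values lay between 9.50 and 10.20, and the differences at days 3, 7 and 21 were 0.47, 0.39 and 0.56, none past the threshold (adjusted p = 0.351, 0.258 and 0.0737).

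Of the other cathepsins past the filter, Ctsa, a serine carboxypeptidase that also holds beta-galactosidase and neuraminidase together, rose by 0.44 ± 0.15 at day 7 (adjusted p = 0.0312). Ctso, a widely expressed cysteine protease, rose by 0.42 ± 0.14 at day 7 (adjusted p = 0.0365) and 0.40 ± 0.14 at day 21 (adjusted p = 0.0413). Ctsz, a carboxypeptidase, rose by 0.29 ± 0.10 at day 7 (adjusted p = 0.0312). These were small steps. The day 7 call of Ctsa ended under median centring (0.31, adjusted p = 0.0829) and without any 1 of sham day 7 replicates 1, 2 and 4 or BDL day 7 replicates 1, 3, 4 and 5 (adjusted p = 0.0504 to 0.0851). The calls of Ctso ended without sham day 7 replicate 1, 2 or 4, with values down to 0.34 at day 7 and 0.31 at day 21, and without BDL day 7 replicate 1, 2, 3 or 5 or any 1 of the 5 ligated arrays of day 21. Those of Ctso ended too with no filter (adjusted p = 0.0521 and 0.0577) and under median centring (0.29 and 0.26). The day 7 call of Ctsz ended without sham replicate 2 or 4 and without BDL replicate 2, 3 or 5 (adjusted p = 0.0572 to 0.128), and with no filter, cyclic loess (0.24), median centring (0.16) and only the groups compared (adjusted p = 0.0518 to 0.208). Ctsh, an aminopeptidase, differed by -0.28, 0.07, 0.12 and 0.17 at days 1, 3, 7 and 21 with no call.

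Ctsf, another cysteine protease, was the 1 member lower at day 3. It read 6.48, 7.09 and 6.44 in the sham arrays of day 1, 7.40 and 7.19 at day 3 and 7.03, 6.85, 7.02 and 7.06 at day 7. Ligated livers gave 6.24, 6.48, 5.61, 6.18 and 6.72 at day 1, 6.80, 6.63, 6.49, 6.45 and 6.62 at day 3, 6.66, 6.79, 7.12, 6.80 and 6.81 at day 7 and 6.97, 6.55, 7.09, 7.08 and 6.72 at day 21. Both sham arrays of day 3 were above all 5 ligated ones, and they were also above every other sham array. The difference was -0.70 ± 0.20 at day 3 (adjusted p = 0.0259). Against all 9 sham arrays it was -0.35 (adjusted p = 0.0866), and it missed the threshold without sham day 3 replicate 1 (-0.59, adjusted p = 0.234) or 2 (-0.80, adjusted p = 0.0879) and without BDL day 3 replicate 3 (-0.67, adjusted p = 0.0513) or 4 (-0.66, adjusted p = 0.0555). At day 1 it was -0.43 ± 0.18 (adjusted p = 0.118), and -0.54 and called with the array set as a term.

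Cathepsin K, the collagen-cutting protease known from osteoclasts, was near the filter level. Ctsk read 5.02, 4.44 and 4.84 in the sham arrays of day 1, 4.83 and 5.03 at day 3 and 5.32, 4.88, 4.94 and 4.98 at day 7. The ligated arrays gave 4.65, 5.16, 4.24, 4.80 and 4.77 at day 1, 4.61, 4.86, 4.99, 4.98 and 5.11 at day 3, 4.93, 4.86, 5.13, 5.09 and 4.85 at day 7 and 5.54, 5.42, 5.53, 5.74 and 5.23 at day 21. Only the day 21 arrays all exceeded 5, and they spread over 5.23 to 5.74, with 1 sham array of day 7 at 5.32 among them. The difference at day 21 was 0.46 ± 0.15 (adjusted p = 0.0204), from a sham mean of 5.03. It missed the threshold under median centring (0.33, adjusted p = 0.092), without sham day 7 replicate 2, 3 or 4 (0.41, 0.43 and 0.44, adjusted p = 0.0514 to 0.0715) and without BDL day 21 replicate 4 (0.40, adjusted p = 0.064). A group mean under 5 was not told apart from background, and at days 1, 3 and 7 Ctsk differed by -0.04, -0.02 and -0.06 with no call.

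Cathepsin E, an endosomal aspartic protease of immune and epithelial cells, was also low. Ctse gave 4.85, 4.53 and 5.18 in the sham arrays of day 1, 4.71 and 4.43 at day 3 and 4.90, 4.83, 4.68 and 4.94 at day 7, and after ligation 4.51, 4.71, 4.59, 4.31 and 4.85 at day 1, 5.57, 4.90, 5.08, 5.44 and 5.08 at day 3, 4.68, 4.93, 5.11, 4.24 and 5.11 at day 7 and 5.54, 4.83, 4.90, 5.24 and 4.99 at day 21. The day 3 arrays of ligation were above both sham arrays of that day, with a difference of 0.65 ± 0.22 (adjusted p = 0.0551). All sham means lay under 5. Ctsw, a protease of cytotoxic lymphocytes, read 4.28 to 5.57 over all arrays and differed by -0.03, -0.21, 0.11 and 0.27 with no call.

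Cathepsin G, a serine protease stored in neutrophil granules, did not pass the filter. Ctsg read 4.05, 3.94 and 4.58 in the sham arrays of day 1, 4.38 and 4.00 at day 3 and 3.96, 3.76, 4.40 and 3.97 at day 7. In ligation it read 4.00, 4.36, 4.15, 4.22 and 3.82 at day 1, 4.09, 3.89, 3.70, 3.87 and 3.93 at day 3, 4.17, 4.01, 4.00, 4.04 and 3.78 at day 7 and 3.94, 3.86, 3.80, 4.00 and 4.27 at day 21. All 29 values lay under 5 and the groups overlapped. Ctsj, Ctsm, Ctsq and Ctsr, cathepsins of the mouse placenta, read at most 5.05, 2.94, 3.64 and 4.12 in any array. Of 4 placental trophoblast genes measured, none passed the filter either.

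Neither of the tested Lamp genes passed the test in a comparison with sham. Lamp1, the most used marker of the lysosomal membrane, read 11.64, 11.58 and 11.36 in the sham arrays of day 1, 11.52 and 11.46 at day 3 and 11.56, 11.57, 11.56 and 11.48 at day 7. Its ligated arrays were 11.66, 11.59, 11.27, 11.63 and 11.64 at day 1, 11.53, 11.72, 11.72, 11.72 and 11.57 at day 3, 11.55, 11.81, 11.74, 11.66 and 11.79 at day 7 and 11.72, 11.72, 11.82, 11.82 and 11.65 at day 21. The values stayed within 11.27 to 11.82 over all arrays. Differences of 0.03 ± 0.10, 0.16 ± 0.11, 0.17 ± 0.09 and 0.20 ± 0.09 at days 1, 3, 7 and 21 missed the threshold (adjusted p = 0.872, 0.432, 0.201 and 0.0932), although at day 21 the groups did not overlap. At day 21 it passed without the array set and against all 9 sham arrays, and median centring left 0.07.

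Lamp2, which serves as the receptor of chaperone-mediated autophagy, read 10.65, 11.44 and 10.62 in the sham arrays of day 1, 11.31 and 11.36 at day 3 and 11.16, 11.38, 11.39 and 11.34 at day 7. Ligation gave 11.03, 10.36, 9.86, 10.85 and 11.22 at day 1, 11.26, 11.32, 11.23, 11.17 and 11.21 at day 3, 11.45, 11.26, 11.34, 11.44 and 11.39 at day 7 and 11.38, 11.21, 11.45, 11.35 and 11.33 at day 21. From day 3 on all arrays of both kinds lay between 11.16 and 11.45, and the low values are those of day 1, down to 9.86. Lamp2 differed by 0.06 ± 0.18 at day 7 (adjusted p = 0.864) and 0.03 ± 0.18 at day 21 (adjusted p = 0.934). With the array set as a term it was lower at day 1, by 0.47 on the log2 scale. Lamp3, known from mature dendritic cells, read at most 3.69, and Lamp5 exceeded 5 in 1 array.

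Within the pump, the membrane sector held the largest change of all members. Atp6v0d2 encodes an isoform of the d subunit known from osteoclasts and macrophages. It read 5.72, 4.33 and 5.97 in the sham arrays of day 1, 5.94 and 4.88 at day 3 and 6.29, 5.30, 5.98 and 4.74 at day 7. Ligated livers read 5.08, 4.69, 4.52, 5.29 and 5.18 at day 1, 7.08, 6.32, 6.03, 7.19 and 6.13 at day 3, 7.73, 7.86, 8.09, 7.52 and 8.20 at day 7 and 9.18, 8.09, 7.85, 8.93 and 8.69 at day 21. Sham arrays were spread over 4.33 to 6.29, the ligated arrays of day 1 lay within that range, and those of days 7 and 21, from 7.52 to 9.18, lay above it. The rise was 2.30 ± 0.34 at day 7 (adjusted p = 1.09e-05) and 2.97 ± 0.34 at day 21 (adjusted p = 1.24e-07), or 4.93 and 7.85-fold. At day 3 the value was 1.14 ± 0.42 (adjusted p = 0.0862), and at day 1 it was -0.39 ± 0.37 (adjusted p = 0.554). The direction at day 1 turned without the array set, to 0.85 (adjusted p = 0.456). Its sham mean at day 7, 5.58, is close to the filter level.

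The widely expressed isoform of the same subunit, Atp6v0d1, was not called in any comparison with sham. It read 8.85, 9.49 and 9.05 in the sham arrays of day 1, 9.52 and 9.47 at day 3 and 9.34, 9.35, 9.50 and 9.27 at day 7. In ligated livers the arrays read 9.65, 9.23, 9.12, 9.68 and 9.82 at day 1, 9.44, 9.40, 9.52, 9.51 and 9.60 at day 3, 9.67, 9.66, 9.52, 9.51 and 9.73 at day 7 and 9.59, 9.62, 9.73, 9.79 and 9.64 at day 21. At days 7 and 21 the ligated arrays were all above the sham arrays of day 7, by 0.25 ± 0.12 (adjusted p = 0.17) and 0.31 ± 0.12 (adjusted p = 0.0691). The day 1 difference was 0.37 ± 0.13 (adjusted p = 0.0647), and that of day 3 had an adjusted p of 0.999. Several alternatives gave a call: at day 1 the stricter filter, cyclic loess and the fits without sham replicate 2 or BDL replicate 2 or 3 (0.29 to 0.55), at day 7 the array set as a term, its omission and all 9 sham arrays (0.25 to 0.30), and at day 21 these 3, cyclic loess and only the groups compared (0.26 to 0.36).

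**Figure D2:**
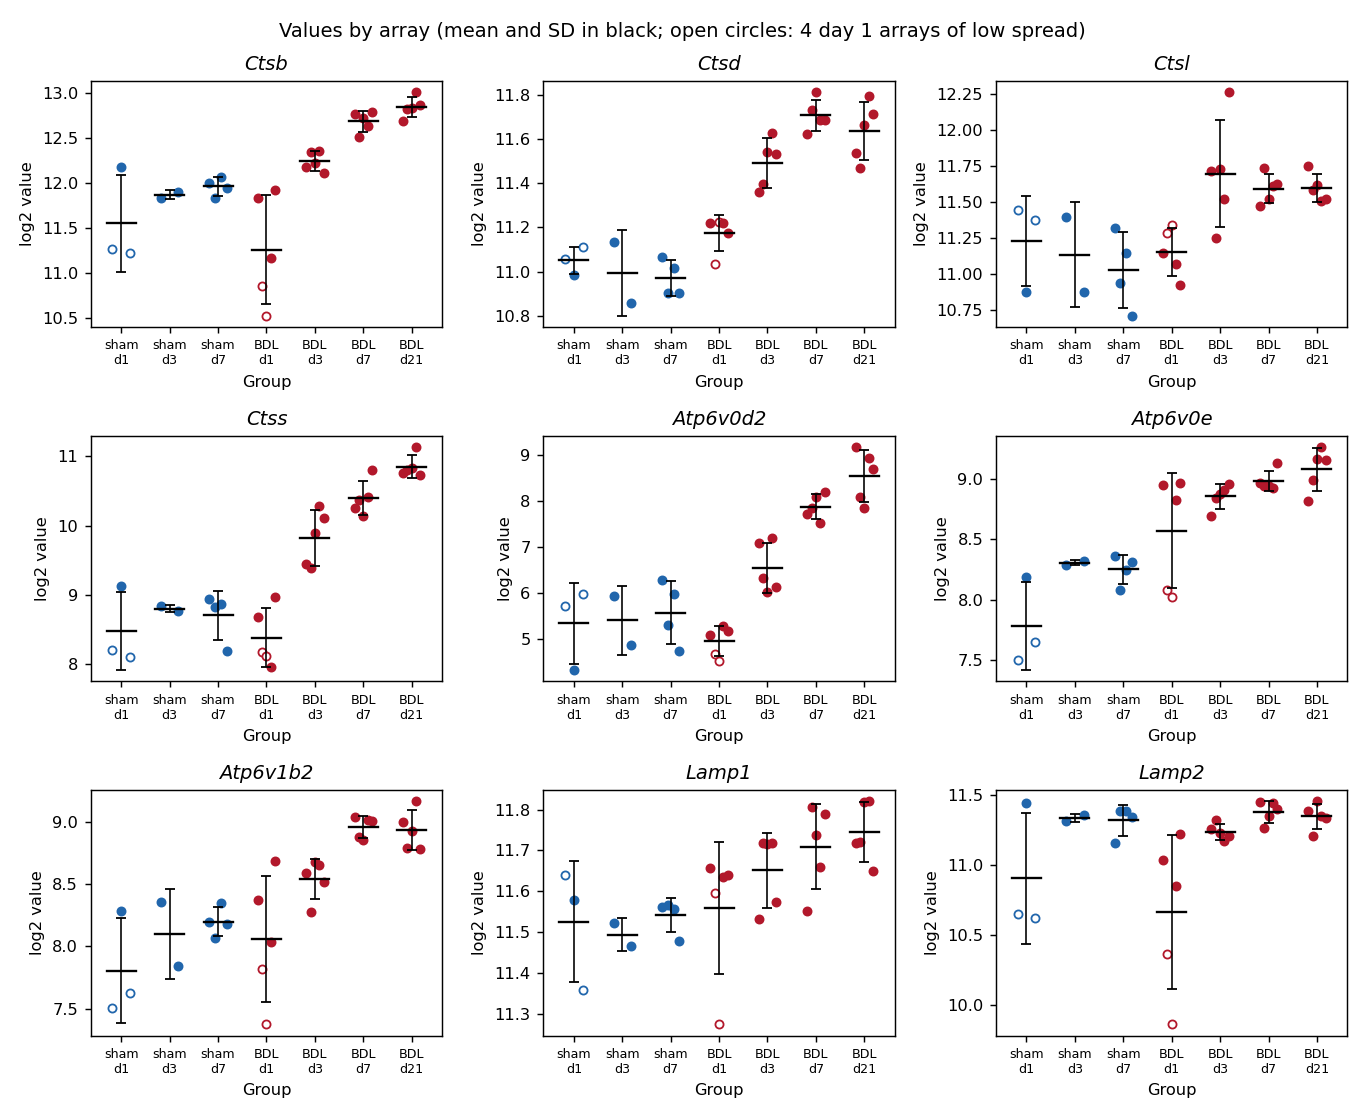
Log2 value of 9 members in every array (points; blue sham, red BDL; d is day) with the group mean and SD in black; open circles are the 4 day 1 arrays of low spread, and each panel has its own axis. Ctss, Ctsd and Atp6v0d2 leave the sham range from day 3 or 7 on, while Lamp1 and Lamp2 stay close to it.

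Atp6v0e, the small e subunit of V0, was higher at days 1, 7 and 21. Its sham values were 7.50, 8.19 and 7.66 in the sham arrays of day 1, 8.29 and 8.32 at day 3 and 8.36, 8.08, 8.25 and 8.31 at day 7. Its ligated values were 8.95, 8.08, 8.02, 8.83 and 8.96 at day 1, 8.69, 8.84, 8.88, 8.91 and 8.95 at day 3, 8.97, 8.94, 8.94, 8.93 and 9.13 at day 7 and 8.82, 8.99, 9.17, 9.26 and 9.16 at day 21. At day 1 the 2 BDL arrays of the low-spread set, 8.08 and 8.02, lay below the highest sham array, and the other 3 lay above it. From day 3 no overlap remained. Differences were 0.79 ± 0.18 at day 1 (adjusted p = 0.00304), 0.55 ± 0.20 at day 3 (adjusted p = 0.0868), 0.73 ± 0.16 at day 7 (adjusted p = 0.00158) and 0.83 ± 0.16 at day 21 (adjusted p = 0.000286). The day 1 call was kept with the array set as a term. Without the set, which leaves 1 sham array of day 1, the difference was 0.72. The call ended within the set (0.47, adjusted p = 0.262) and with only the day 1 groups fitted (adjusted p = 0.12).

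Atp6v0a1, an isoform of the large a subunit that carries the proton channel, was highest at day 3. It read 7.67, 8.53 and 8.27 in the sham arrays of day 1, 8.46 and 8.57 at day 3 and 8.13, 8.54, 8.73 and 8.68 at day 7. After ligation it read 9.05, 8.22, 8.91, 8.93 and 9.16 at day 1, 8.94, 8.89, 9.82, 9.64 and 10.03 at day 3, 9.03, 8.59, 9.03, 8.97 and 9.01 at day 7 and 9.23, 9.13, 9.23, 9.09 and 9.06 at day 21. The day 3 arrays fell into a pair near 8.9 and 3 between 9.64 and 10.03, all above sham. Atp6v0a1 differed by 0.70 ± 0.23 at day 1 (adjusted p = 0.0364), 0.95 ± 0.26 at day 3 (adjusted p = 0.0165), 0.41 ± 0.21 at day 7 (adjusted p = 0.184) and 0.63 ± 0.21 at day 21 (adjusted p = 0.0245). These calls were fragile. At day 1 it ended without either array of the sham set, replicate 1 (0.46, adjusted p = 0.288) or 3 (0.76, adjusted p = 0.0705), without the array set (0.52, adjusted p = 0.428) and without BDL replicate 1, 3, 4 or 5. It ended at day 1 also with no filter, only the groups compared, the array set as a term (0.56), the set alone (0.60) and all 9 sham arrays (0.46), with adjusted p from 0.0511 to 0.338. At day 3 it ended without sham replicate 1 (0.89, adjusted p = 0.135) or 2 (1.00, adjusted p = 0.0963), and with only the groups compared (adjusted p = 0.102). At day 21 it ended under median centring (0.50, adjusted p = 0.0584) and without sham day 7 replicate 1 (0.50, adjusted p = 0.107).

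The remaining V0 genes past the filter were not called in any comparison with sham. Atp6v0b, of the proton-carrying ring, differed by 0.06 to 0.16. Atp6v0a2, an a subunit known from the Golgi and endosomes, differed by 0.27 at day 1 and by -0.06 at day 21. Atp6v0e2, an isoform of the e subunit, read 4.37 to 6.12 and differed by 0.42, -0.03, 0.37 and 0.34. Atp6v0a4, the isoform of kidney cells, read at most 4.20. Atp6v0c, the main protein of the ring, was not analysed here.

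In the V1 sector, Atp6v1b2 and Atp6v1a encode the B and A subunits that form the ATP-splitting head. Atp6v1b2 read 7.50, 8.28 and 7.62 in the sham arrays of day 1, 8.36 and 7.84 at day 3 and 8.20, 8.07, 8.35 and 8.18 at day 7. Ligated arrays read 8.37, 7.82, 7.37, 8.04 and 8.68 at day 1, 8.59, 8.28, 8.68, 8.65 and 8.51 at day 3, 9.04, 8.88, 8.85, 9.02 and 9.0 at day 7 and 9.0, 8.79, 8.92, 9.16 and 8.78 at day 21. The day 7 and day 21 arrays, from 8.78 to 9.16, all exceeded every sham array, and the day 1 arrays spanned 7.37 to 8.68. The difference was 0.76 ± 0.18 at day 7 (adjusted p = 0.00284) and 0.73 ± 0.18 at day 21 (adjusted p = 0.0029). At days 1 and 3 it was 0.25 ± 0.20 and 0.44 ± 0.23 (adjusted p = 0.455 and 0.243). The gene has 2 rows on the array, and their mean gave 0.34 at day 7 and 0.41 at day 21, both still past the threshold. These lie well below the 0.76 and 0.73 of the row kept. The 2 rows therefore disagree on the size of the change, and the larger values rest on 1 of them.

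Atp6v1a read 7.75, 8.15 and 8.17 in the sham arrays of day 1, 8.23 and 8.19 at day 3 and 8.36, 8.09, 8.16 and 8.26 at day 7. Values under ligation were 8.13, 7.98, 7.44, 8.01 and 8.24 at day 1, 8.30, 8.40, 8.45, 8.65 and 8.44 at day 3, 8.66, 8.43, 8.68, 8.68 and 8.74 at day 7 and 8.46, 8.44, 8.76, 8.79 and 8.61 at day 21. At day 1 the ligated arrays reached lower than any sham array, to 7.44, and at days 7 and 21 all stood above the sham arrays of day 7. The rise was 0.42 ± 0.13 at day 7 (adjusted p = 0.0177) and 0.40 ± 0.13 at day 21 (adjusted p = 0.0212). Both calls ended under median centring (0.29 and 0.26) and without sham day 7 replicate 2 (0.38, adjusted p = 0.064, and 0.35, adjusted p = 0.0729). At day 21 the call also ended without sham replicate 3 (adjusted p = 0.0543) and without BDL replicate 3 or 4 (adjusted p = 0.0557 and 0.061).

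The stalks that hold the head are built of E and G subunits. Atp6v1e1 read 8.99, 9.07 and 9.01 in the sham arrays of day 1, 9.27 and 9.11 at day 3 and 9.61, 9.13, 9.36 and 9.21 at day 7. In ligation it read 9.62, 9.20, 9.06, 9.53 and 9.60 at day 1, 9.63, 9.59, 9.52, 9.67 and 9.67 at day 3, 9.60, 9.91, 9.72, 9.70 and 9.66 at day 7 and 9.64, 9.51, 9.54, 9.52 and 9.51 at day 21. Sham day 7 replicate 1, at 9.61, lay among the ligated arrays, and the other 8 sham arrays were at or under 9.36. Atp6v1e1 was higher by 0.37 ± 0.12 at day 1 (adjusted p = 0.0316), 0.43 ± 0.13 at day 3 (adjusted p = 0.0385) and 0.39 ± 0.11 at day 7 (adjusted p = 0.00959). The value at day 21 was 0.22 ± 0.11 (adjusted p = 0.152). The day 1 call ended without sham replicate 1 or 3 (adjusted p = 0.106 and 0.0953), without BDL replicate 1, 4 or 5 and without the array set (0.51, adjusted p = 0.0547). It ended as well with no filter, cyclic loess (0.30), only the groups compared, the array set as a term (0.29), the set alone (0.13) and all 9 sham arrays (0.21), with adjusted p from 0.0518 to 0.815. That of day 3 ended with no filter (adjusted p = 0.0601), median centring (0.37) and only the groups compared (adjusted p = 0.0578), without either sham array (0.51 and 0.35, adjusted p = 0.0902 and 0.303) and without BDL replicate 1, 4 or 5, and that of day 7 without sham replicate 2 (0.33, adjusted p = 0.0534) and under median centring (0.26).

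Atp6v1g1, the widely expressed G subunit, read 7.92, 7.68 and 8.38 in the sham arrays of day 1, 7.86 and 8.09 at day 3 and 8.32, 7.80, 7.79 and 7.85 at day 7. Under ligation it read 8.48, 8.75, 8.62, 8.49 and 8.44 at day 1, 8.29, 8.37, 8.39, 8.48 and 8.39 at day 3, 8.18, 8.51, 8.09, 8.26 and 8.40 at day 7 and 8.23, 8.21, 8.39, 8.42 and 8.35 at day 21. All 5 ligated arrays of day 1 were above the sham arrays of that day, and sham day 7 replicate 1, at 8.32, stood apart from the other sham arrays of its day at 7.79 to 7.85. Differences were 0.56 ± 0.13 at day 1 (adjusted p = 0.0049), 0.41 ± 0.15 at day 3 (adjusted p = 0.0896), 0.35 ± 0.12 at day 7 (adjusted p = 0.046) and 0.38 ± 0.12 at day 21 (adjusted p = 0.0225). The mean of its 3 rows gave 0.20, 0.06 and 0.16 at days 1, 7 and 21, none past the threshold. Its rows therefore disagree. Cyclic loess ended the calls of days 1, 7 and 21 (0.45, 0.27 and 0.32) and median centring those of days 7 and 21 (0.22 and 0.25). The day 1 call also ended within the array set (0.53) and with only the groups compared (adjusted p = 0.0882). That of day 7 also ended with no filter (adjusted p = 0.0673), with only the groups compared (adjusted p = 0.079), without sham replicate 2, 3 or 4 and without BDL replicate 2, 4 or 5 (adjusted p = 0.0659 to 0.139), and the day 21 call without sham replicate 2, 3 or 4 or BDL replicate 4 (adjusted p = 0.0535 to 0.0803).

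Atp6v1g3, the G isoform of kidney, sat at the background. It gave 5.44, 4.16 and 5.33 in the sham arrays of day 1, 4.39 and 4.25 at day 3 and 4.61, 4.34, 3.94 and 4.27 at day 7. Ligated livers gave 4.17, 4.64, 4.51, 4.09 and 4.24 at day 1, 4.44, 4.48, 4.67, 5.05 and 4.61 at day 3, 4.05, 4.73, 4.28, 4.42 and 4.09 at day 7 and 4.11, 4.30, 4.27, 4.00 and 4.43 at day 21. It passed the filter with 3 arrays above 5, the fewest allowed, and sham day 1 replicates 1 and 3 are 2 of these. Its day 1 test therefore depends on the group that reads high, and is no support for a change. The 2 sham values above 5 at day 1 are both of the low-spread array set. Its call at day 1, -0.64 ± 0.21 (adjusted p = 0.0411), was 0.0024 without that set (adjusted p = 0.997). It also ended without sham replicate 1 or 3 (-0.41 and -0.47) and without BDL replicate 1, 4 or 5 (-0.61, -0.58 and -0.62). The other losses were with no filter, only the groups compared, the set as a term (-0.46), the set alone (-0.80) and all 9 sham arrays (-0.20), at adjusted p from 0.0577 to 0.511.

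Atp6v1c1, the C subunit that ties the head to the stalks, was higher at day 1 by 0.34 ± 0.11 (adjusted p = 0.0352) and not called later. That call ended without sham replicate 1 or 3 (adjusted p = 0.19 and 0.0949), without BDL replicate 1, 4 or 5 (adjusted p = 0.0672 to 0.0954) and without the array set (0.34, adjusted p = 0.226). Atp6v1c1 was not called at day 1 either with no filter, cyclic loess (0.24), only the groups compared, the set as a term (0.27), the set alone (0.21) or all 9 sham arrays (0.10), at adjusted p from 0.0583 to 0.657. Atp6v1h, the regulatory H subunit, was level. It read 7.56, 7.60 and 7.60 in the sham arrays of day 1, 7.69 and 7.62 at day 3 and 7.74, 7.63, 7.74 and 7.66 at day 7. With ligation it read 7.82, 7.41, 7.65, 7.83 and 7.86 at day 1, 7.55, 7.62, 7.80, 7.85 and 7.68 at day 3, 7.58, 7.66, 7.62, 7.61 and 7.88 at day 7 and 7.72, 7.66, 7.91, 7.88 and 7.65 at day 21. All values lay between 7.41 and 7.91, and the differences of 0.13 ± 0.10, 0.05 ± 0.12, -0.02 ± 0.10 and 0.07 ± 0.10 were not called (adjusted p = 0.476, 0.875, 0.913 and 0.634).

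The V1 genes Atp6v1b1, Atp6v1d, Atp6v1e2, Atp6v1f and Atp6v1g2 passed in no comparison with sham. Atp6v1d, of the rotating shaft, differed by 0.20 at day 7, and Atp6v1f, also of the shaft, by 0.27. Atp6v1b1, the B isoform of kidney and inner ear, differed by 0.02 at day 7. Atp6v1e2, a testis form of E, and Atp6v1g2, a brain form of G, had values of -0.20 and -0.24 at day 21. Atp6v1g2 was the member lowest at day 21, and under median centring it was called there, at -0.38. Atp6v1c2 and Atp6v1fnb read at most 4.94 and 4.63 and were not tested.

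Of the accessory proteins, Atp6ap1 helps to assemble the pump. It read 8.43, 9.10 and 8.64 in the sham arrays of day 1, 8.87 and 8.96 at day 3 and 8.98, 8.94, 8.94 and 9.17 at day 7. The ligated arrays read 9.26, 8.47, 8.49, 9.20 and 9.38 at day 1, 9.32, 9.29, 9.36, 9.58 and 9.34 at day 3, 9.42, 9.07, 9.51, 9.53 and 9.54 at day 7 and 9.27, 9.47, 9.62, 9.60 and 9.30 at day 21. At day 21 all ligated arrays were above the sham arrays of day 7, and at day 7 BDL replicate 2, at 9.07, was the 1 array within their range. Atp6ap1 was higher by 0.45 ± 0.16 at day 21 (adjusted p = 0.0414), and differed by 0.41 ± 0.16 at day 7 (adjusted p = 0.0758). At day 3 it differed by 0.46 ± 0.20 (adjusted p = 0.156). The day 21 call ended with no filter (adjusted p = 0.0568), under median centring (0.31), without sham replicate 1, 2 or 3 and without BDL replicate 2, 3 or 4 (adjusted p = 0.0667 to 0.0953).

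Atp6ap2, also known as the prorenin receptor, read 7.50, 7.60 and 7.76 in the sham arrays of day 1, 8.16 and 7.79 at day 3 and 8.17, 8.02, 8.03 and 7.82 at day 7. After ligation its values were 8.14, 7.95, 7.81, 8.13 and 8.07 at day 1, 8.05, 8.11, 8.31, 8.25 and 8.43 at day 3, 8.14, 8.26, 8.26, 8.29 and 8.36 at day 7 and 8.15, 8.12, 8.27, 8.35 and 8.22 at day 21. At day 1 every ligated array was above every sham array of that day, but within the range of the later sham arrays. Atp6ap2 was higher by 0.40 ± 0.11 at day 1 (adjusted p = 0.0124). Against all 9 sham arrays this was 0.15 (adjusted p = 0.314), and without sham day 1 replicate 1 it was 0.34 (adjusted p = 0.0874). It also missed the threshold without the array set (0.51, adjusted p = 0.0728), within it (0.26, adjusted p = 0.593) and with only the groups compared (adjusted p = 0.131). In sham livers alone Atp6ap2 was lower at day 1 than at day 7, by -0.39 ± 0.11 (adjusted p = 0.046), the 1 member called in that comparison, in which 2.96% of all tested genes were lower and 1.15% higher. This call ended without sham day 1 replicate 1 or 3 and without any 1 of the 4 sham arrays of day 7. Without sham day 1 replicate 2, the sham arrays of day 1 are all of the low-spread set. In that fit 12 members were called, and the share of all genes called in it was not read. Atp6ap1l read at most 3.71.

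The ligated groups were also compared with each other. From day 1 to day 3, 13 members rose and none fell, where 12.0% of all tested genes rose and 6.44% fell. They were 8 cathepsins, Lamp2, Atp6v0a1, Atp6v0d2, Atp6v1a and Atp6v1b2. Ctss rose by 1.44 ± 0.21 (adjusted p = 3.50e-05), Atp6v0d2 by 1.6 ± 0.32 (adjusted p = 0.00107) and Ctsb by 0.98 ± 0.19 (adjusted p = 0.000797). With the array set as a term 8 members rose and without the set 7, where 5.67% and 5.54% of all genes rose, and the rise of Ctsb was then 0.60 in both. Without the set the 7 were Ctsb, Ctsd, Ctse, Ctsl, Ctss, Atp6v0d2 and Atp6v1a. With all arrays the mean of Ctse was 4.59 at day 1, not told apart from background, and 5.21 at day 3.

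From day 3 to day 7 the 1 member called was Atp6v0d2, with a rise of 1.33 ± 0.32 (adjusted p = 0.0109), where 4.60% of all genes rose and 1.10% fell. The 5 ligated arrays of day 7 were all above the 5 of day 3. With the array set as a term, Ctsa, Ctsb, Ctss and Atp6v1b2 were called as well, where 6.89% of all genes rose and 1.84% fell. Atp6v0a1 differed by -0.54 ± 0.20, and it was called lower without BDL day 3 replicate 1 (-0.67) or 2 (-0.68). Between days 7 and 21 limma called none of the 36, beside 0.864% of all genes, while 3 had an unadjusted p under 0.05, which 8.15% of all genes had. These were Ctsk, Ctss and Atp6v0d2, all higher at day 21, and Ctsk, with 0.52 ± 0.14 (adjusted p = 0.0717), was called when only those 2 groups were fitted.

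The effect of ligation at day 7 was then tested against that at day 1. For 4 members it was larger at day 7: Atp6v0d2 by 2.69 ± 0.50 (adjusted p = 0.00231), Ctss by 1.79 ± 0.32 (adjusted p = 0.00202), Ctsb by 1.01 ± 0.30 (adjusted p = 0.0461) and Ctsd by 0.61 ± 0.13 (adjusted p = 0.00585). None was smaller. Over all tested genes 3.48% had a larger and 0.857% a smaller effect at day 7. Of the 4, Ctss kept the call under every alternative, with values of 1.47 to 2.28. Without the low-spread arrays Atp6v0d2 stood at 1.45 (adjusted p = 0.258) and Ctsd at 0.52 (adjusted p = 0.109). Ctsb lost the call without the filter (adjusted p = 0.0653), with only these groups fitted (adjusted p = 0.138) and in 12 of the fits that left out 1 array.

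**Figure D3:**
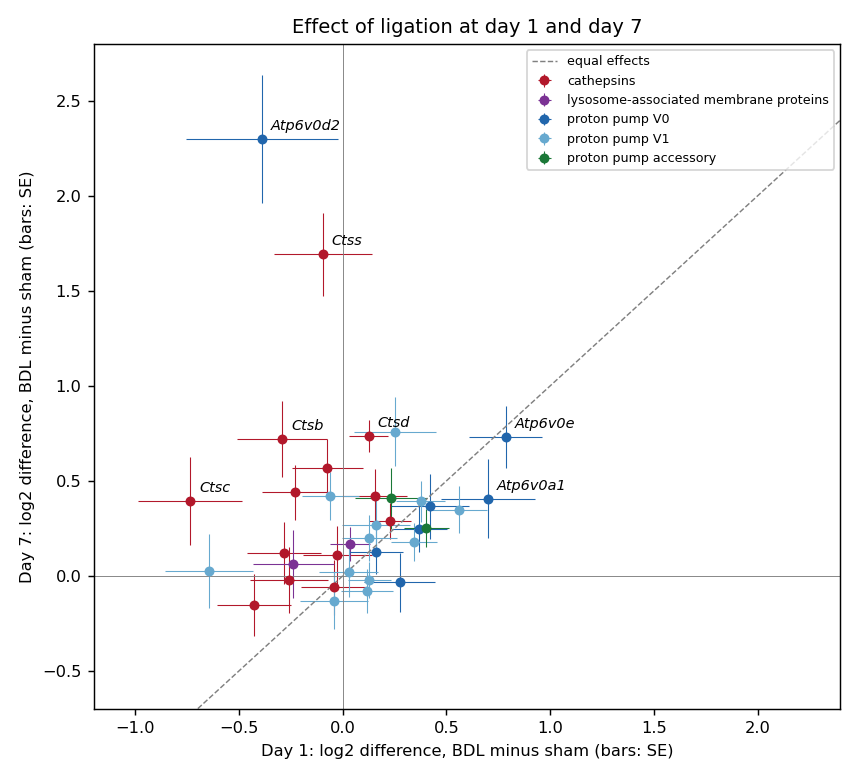
Difference between BDL and sham at day 1 (horizontal axis) and at day 7 (vertical axis), both log2 with SE bars, for the 36 tested members, coloured by role; the dashed line marks equal effects. Atp6v0d2, Ctss, Ctsb and Ctsd, which were called in the test of this difference, lie above the line. Ctsc, not called there, lies further above it than Ctsb and Ctsd, and Atp6v0e and Atp6v0a1 lie near or below it.

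The counts of day 1 are read by family beside 8.52% of all tested genes higher and 4.80% lower. Of 21 tested pump genes 6 were higher and 1 was lower, with a median difference of 0.23. The pump gene that was lower was Atp6v1g3, which sat at the background. Of 13 tested cathepsins none was higher and 1 lower, with a median of -0.10. This difference between families was not tested. With the array set as a term, 3 members were higher (Atp6ap2, Atp6v0e and Atp6v1g1) and 6 lower (Ctsa, Ctsb, Ctsc, Ctsf, Ctsh and Lamp2), so the balance turned, where 8.21% of all genes were higher and 6.65% lower. Without the set, which leaves 1 sham array, Atp6v0e and Atp6v1g1 were higher and Ctsc and Ctsh lower, beside 1.99% and 2.07% of all genes. Within the set alone 1 member was called, Atp6v0d2, lower by 1.24 on the log2 scale, beside 1.44% of all genes higher and 1.33% lower. Against all 9 sham arrays 2 members were higher and 6 lower at day 1, beside 11.1% and 10.7% of all genes. Leaving out 1 array at a time gave 3 called members without sham replicate 1, sham replicate 3 or BDL replicate 4, 4 without BDL replicate 1 and 5 without BDL replicate 5. With only the 8 day 1 arrays fitted, none was called, and 2.90% of all genes were higher and 1.89% lower.

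Members not called at day 1 were also read without the array set. Ctss then stood at -0.58, Ctsb at -0.53, Ctsd at 0.22 and Ctsl at 0.18. Lamp1 and Lamp2 stood at 0.06 and -0.41. Ctsf was at -0.71 (adjusted p = 0.0615), Ctsk at 0.30 and Ctse at 0.02. In the pump, Atp6v0d1 was at 0.23, Atp6v1a at -0.02, Atp6v1b2 at 0.08, Atp6v1h at 0.23 and Atp6ap1 at 0.18. None of these passed. Ctsl, Ctsk, Ctse and Atp6v0d2 had the opposite sign with the set included.

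Other lysosomal genes were read from lists. Of 29 tested hydrolases and their activators, 14 were higher at day 7 and 16 at day 21, none lower, beside 14.2% and 17.3% of all tested genes higher. At day 1 it was 1 and at day 3 it was 4, beside 8.52% and 6.47%. Lgmn, the asparagine-specific protease legumain that processes cathepsins, rose by 1.37 ± 0.15 at day 7 (adjusted p = 1.17e-07) and 1.56 ± 0.15 at day 21 (adjusted p = 5.22e-09). Asah1, acid ceramidase, rose by 0.88 ± 0.16 and 1.10 ± 0.16, Galns, which removes sulfate from keratan sulfate, by 0.84 ± 0.18 and 0.97 ± 0.18, and Gusb, beta-glucuronidase, by 0.88 ± 0.16 and 0.78 ± 0.16. The array means of the list were 8.27 to 8.41 in sham at day 7 and 8.62 to 8.84 in BDL at day 7, without overlap. Of 19 membrane proteins of lysosomes outside the members, 6 were higher at day 7 and 6 at day 21, beside 14.2% and 17.3%. Cd63, a tetraspanin, rose by 1.11 ± 0.27 at day 1 (adjusted p = 0.0052), 1.63 ± 0.24 at day 7 and 2.14 ± 0.24 at day 21. Laptm5 and Slc11a1, both of blood cells and macrophages, rose by 1.46 and 1.49 at day 7, and Npc2, which binds cholesterol, by 0.51. Tcirg1, which encodes an a subunit of V0 known from osteoclasts and macrophages, falls outside the symbol rule and is named after its values were seen, differed by -0.37 ± 0.16 at day 1 (adjusted p = 0.125) and rose by 0.61 ± 0.15 at day 7 (adjusted p = 0.00269) and 0.61 ± 0.15 at day 21 (adjusted p = 0.00226).

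Of 5 tested cathepsin inhibitors 1 was higher at days 1, 3 and 7 and 3 at day 21. The shares of all tested genes were 8.52%, 6.47%, 14.2% and 17.3%. Cstb, the cytosolic inhibitor of cathepsins B, H and L, rose by 0.83 ± 0.13 at day 1 (adjusted p = 7.46e-05), 0.81 ± 0.15 at day 3, 1.24 ± 0.12 at day 7 (adjusted p = 2.76e-08) and 1.31 ± 0.12 at day 21. Cst3, the secreted cystatin C, rose by 0.41 ± 0.13 at day 21 (adjusted p = 0.0185). Stfa2l1 was called at day 21 too, with means of 4.44 and 3.21 that were not told apart from background. Of 15 genes of lysosome control and sorting 7 were higher and 2 lower at day 7, and likewise at day 21. Of all tested genes 14.2% were higher and 4.97% lower at day 7, and 17.3% and 7.90% at day 21. Tfec, a factor of the TFEB family found in macrophages, rose by 0.99 ± 0.13 at day 7 (adjusted p = 1.56e-06), Gnptab, which tags enzymes for the lysosome, by 0.59 ± 0.16, and Sqstm1, an autophagy receptor, by 0.63 ± 0.09. Sort1, a sorting receptor, was lower, with -0.54 ± 0.17 at day 7 (adjusted p = 0.0228).

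Marker genes of several cell types moved with these results, and their part in them was not tested. In whole tissue, more cells of a type and more RNA per cell cannot be told apart. All 10 Kupffer cell markers and 10 of 12 markers of monocyte-derived macrophages were higher at day 7, and all 10 and all 12 at day 21. Of all tested genes 14.2% and 17.3% were higher at these days. The mean of the 10 Kupffer markers was 7.83 to 8.17 in sham arrays of day 7, 7.36 to 8.35 at day 1 of ligation, 8.40 to 9.17 at day 3, 9.04 to 9.52 at day 7 and 9.09 to 9.83 at day 21. For the monocyte-derived list it was 5.77 to 6.14 in sham at day 7, 6.62 to 7.04, 7.11 to 7.63 and 7.48 to 8.04 at days 3, 7 and 21 of ligation. At day 1 it was 5.75 to 6.56 in ligated and 5.60 to 5.94 in sham livers. There 4 of its 12 genes were higher, and of the 10 Kupffer markers 1 was higher and 1 lower. Of all tested genes 8.52% were higher and 4.80% lower. At sham day 7, 5 of the 12 genes had a mean under 5. From day 3 on neither list overlapped with the sham arrays it was set against, as held for Ctss and Ctsd. The same held for other lists, among them those of cholangiocytes, neutrophils and hydrolases. Array means of the cholangiocyte list at day 7 were 5.49 to 5.73 in sham and 6.44 to 6.79 in BDL.

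Hepatocyte markers had array means of 12.54 to 12.94 over all groups, as in liver tissue. Of 9, 1 was lower and none higher at day 7, beside 4.97% and 14.2% of all tested genes. Neutrophil markers were higher for 4 of 10 at day 1 and 5 of 10 at day 7, beside 8.52% and 14.2% of all tested genes. Their array means at day 7 were 4.61 to 4.78 in sham and 4.91 to 5.23 in BDL. Of the 12 measured, 7 had a mean under 5 in sham and 8 in BDL at day 7, not told apart from background. Of 12 stellate cell and fibroblast markers 10 were higher at day 7 and 10 at day 21, and of 8 cholangiocyte markers all 8 at both. The shares of all tested genes higher were 14.2% and 17.3%. Sham day 7 replicate 1, the array that reads high for Atp6v1e1 and Atp6v1g1, had a stellate list mean of 7.83, against 6.32 to 6.66 in the other 3. Of 6 lymphocyte and NK cell markers 2 were lower at days 7 and 21, beside 4.97% and 7.90% of all tested genes. None of 5 dendritic cell markers was called. Of 6 tested osteoclast genes, a list that shares Acp5 with the hydrolases, 2 were higher at day 7 and 3 at day 21, beside 14.2% and 17.3%. Acp5 itself, the acid phosphatase of osteoclasts and macrophages, was not called at days 7 or 21.

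**Figure D4:**
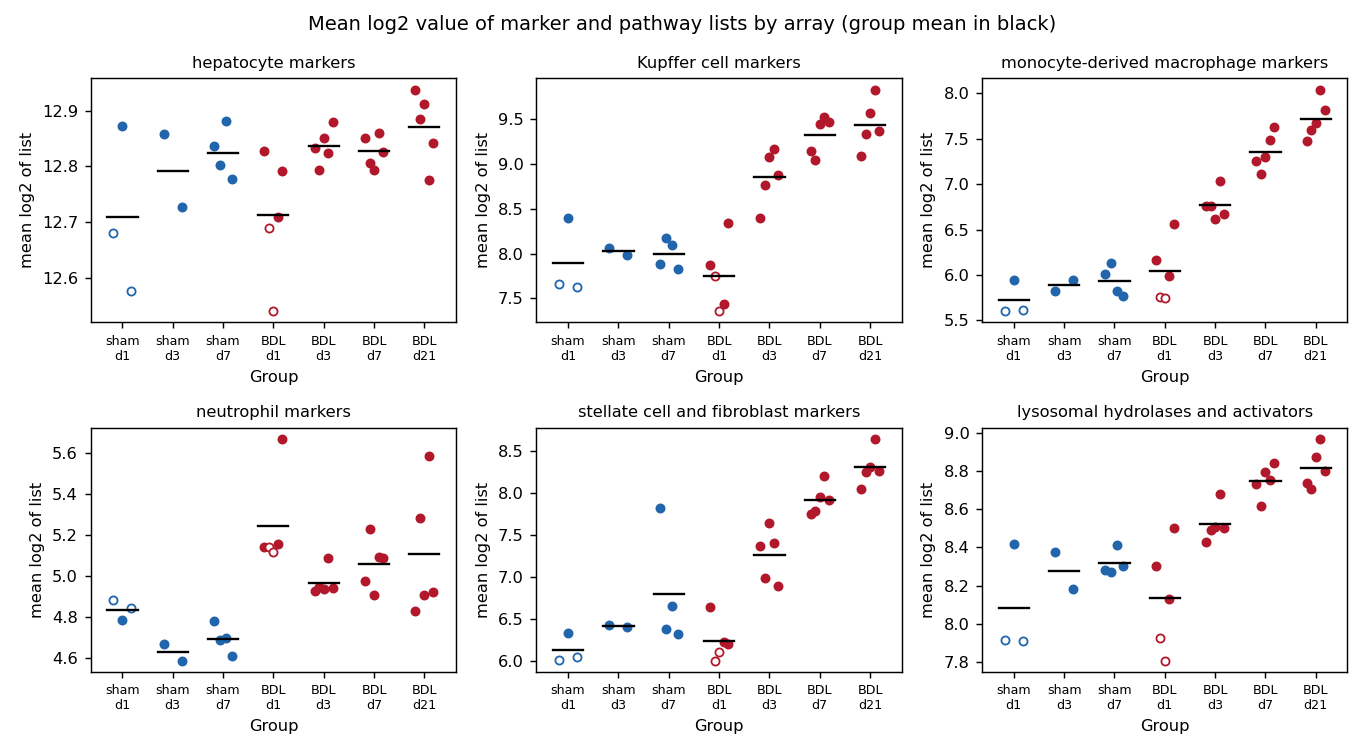
Mean log2 value of 6 gene lists in every array (points; blue sham, red BDL; d is day) with the group mean in black; open circles are the 4 day 1 arrays of low spread, and each panel has its own axis. The 2 macrophage lists and the hydrolases lie above sham from day 3 or 7 on, while the hepatocyte axis spans only 12.54 to 12.94.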

How the data were processed

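Liver RNA of 29 mice was measured on 1-colour Affymetrix arrays. A Mouse Genome 430 2.0 array is named in the labels' protocols, whereas the identifiers match the Mouse Gene 2.0 ST annotation, which was used. The deposited values are log2 intensities made with RMA in oligo 1.52.0, per the submitters' processing notes. Which genome build lay behind them was not stated in the labels.

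Of 41345 features, 23521 carried 1 gene symbol. Symbols were updated through gene identifiers in the RefSeq table of GRCm38.p6, which held 23328 of them. Each gene kept its feature of highest mean, which left 22180 genes, and 14699 had a log2 value over 5 in at least 3 arrays. All 29 arrays entered 1 linear model in limma 3.58.1 (R 4.3.3), in which each group had its own mean, with Benjamini-Hochberg adjustment over the 14699 genes and a threshold of 0.05. The adjusted p of each main result comes from it. An adjusted p given for an alternative comes from the limma fit of that alternative, adjusted over the genes in that fit. The procedure was tested on simulated data. Groups came from the labels, and array medians lay between 4.90 and 5.13.

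The members and gene lists were chosen with earlier results of these data known. Given in every array are the best known cathepsins, Lamp proteins and pump subunits and, of the members past the threshold, up to 6 with the largest change in each comparison with sham. Named from each pathway list are up to 4 genes with the largest change past the threshold at day 7 or 21. The alternatives were no filter or a level of 6, the mean of a gene's features, cyclic loess, median centring, limma's trend and robust options, only the groups compared, all 9 sham arrays, and each array left out in turn. The alternatives on the set of arrays of low spread were chosen after seeing the data.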

Additional observations from a re-analysis of the deposited data

Results flagged for a closer look

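Single arrays stood apart from the rest of their group, by Dixon's test at the 95% level, in 15 of 110 groups of 4 or 5 arrays examined over 22 members, where chance gives about 1 in 20. In Ctsd, BDL day 1 replicate 2 was lowest at 11.03. In Ctss, sham day 7 replicate 4 was lowest at 8.18 and BDL day 21 replicate 4 highest at 11.14. In Ctsc, BDL day 7 replicate 5 was highest at 10.20. In Lamp1, sham day 7 replicate 4 was lowest at 11.48 and BDL day 1 replicate 3 at 11.27.

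Among the pump genes, BDL day 7 replicate 2 was the lowest of its group in Atp6v1a (8.43), Atp6ap1 (9.07) and Atp6v0a1 (8.59). BDL day 7 replicate 5 was the highest of that group in Atp6v1h (7.88) and Atp6v0e (9.13). The other cases were Atp6ap1 in BDL day 3 replicate 4 (highest, 9.58), Atp6v0a1 in BDL day 1 replicate 2 (lowest, 8.22), Atp6v1g1 in sham day 7 replicate 1 (highest, 8.32) and Atp6v1e1 in BDL day 21 replicate 1 (highest, 9.64).

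The effect of ligation differed between days 7 and 1 in limma's interaction test for Atp6v0d2 (2.69, adjusted p = 0.00231), Ctss (1.79, adjusted p = 0.00202), Ctsb (1.01, adjusted p = 0.0461) and Ctsd (0.61, adjusted p = 0.00585). All 4 were larger at day 7. The array set of low spread enters the day 1 side of these values, and its part in them was not tested beyond the fits without it.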

How the results depend on the processing

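Counts of called members moved by over 1.5 times as follows, and the cause was not tested except that a fit of fewer arrays has less information. Day 1 (8 members) gave 3 with no filter, 0 with only the groups compared, 4 without the array set and 1 within it. Over all genes at day 1, 4.87% were higher and 2.87% lower with no filter. The shares were 2.90% and 1.89% with only the groups compared, and 1.44% and 1.33% within the set. Day 3 (5) gave 3 with only the groups compared, 10 with the array set as a term, 10 without it and 14 against all 9 sham arrays. In that order, 4.16%, 8.40%, 8.83% and 15.0% of all genes were higher and 2.11%, 4.95%, 5.17% and 8.66% lower. Days 7 and 21 (13 each) gave 6 and 8 under median centring and 20 each against all 9 sham arrays. Under median centring 10.4% and 12.2% of all genes were higher and 13.0% and 17.8% lower. Against all 9 sham arrays 21.2% and 23.5% were higher and 8.56% and 11.3% lower. The rise from day 1 to day 3 of ligation (13) gave 8 with the set as a term and 7 without it. Of all genes 5.67% and 5.54% rose and 4.39% and 4.29% fell in these fits. Day 7 against day 3 (1) gave 2 under cyclic loess, 2 under median centring and 3 with only the groups compared. It gave 5 with the set as a term and 4 without it. In that order, 3.97%, 2.99%, 5.88%, 6.89% and 6.95% of all genes were higher and 1.91%, 2.30%, 1.68%, 1.84% and 1.95% lower. Day 21 against day 7 (0) gave 1 with only the groups compared and 1 without the set. Of all genes 0.66% and 0.47% were higher and 0.94% and 0.54% lower there. Sham day 1 against day 7 (1) gave 0 with no filter, cyclic loess, median centring, only the groups compared and the set as a term. In that order, 0.595%, 1.55%, 1.58%, 0% and 0.0068% of all genes were higher. The shares lower were 1.23%, 1.88%, 2.17%, 0% and 0%. The fit without the set leaves 1 sham array of day 1. The interaction (4) gave 10 with the set as a term. Atp6v1g3 at day 1 turned to 0.0024 without the set.

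Leaving out 1 array at a time gave 3 to 9 members at day 1, 0 to 7 at day 3, 7 to 12 at day 7, 8 to 12 at day 21, 9 to 16 for day 3 against day 1 of ligation, 1 to 2 for day 7 against day 3, 0 to 0 for day 21 against day 7, 0 to 12 for the sham days and 3 to 6 for the interaction. A group left with 1 array was assumed to vary like the others.

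Over all tested genes, 2088 were higher and 731 lower at day 7, and 1527 and 1908 under median centring. At day 21 the counts were 2537 and 1161, and 1799 and 2615. Cyclic loess gave 1897 higher and 1169 lower at day 7, 2347 and 1675 at day 21, and 1106 and 1020 at day 1, where the deposited values gave 1252 and 706. At day 3 median centring gave 794 and 752 in place of 951 and 542. Of 34 called values of the members named by rule, 13 kept the call under every alternative run. No paired analysis was possible because the titles carry an animal number of their own for each mouse and the replicate numbers only follow accession order. A setting on arrays with an SD under 1.6 over all features selected none and was not run. It was replaced by the same limit over the tested genes, chosen after seeing the data. Members near log2 5, such as Ctsk, Ctse, Ctsw and Atp6v1g3, are limited by the background of the arrays.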
